A study of Drosophila melanogaster with 6 samples.

Results

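Aminoacyl-tRNA synthetases are the enzymes that join each amino acid to its tRNA. The genes were chosen by symbol: 1 or 2 three-letter amino acid codes followed by RS, with the ending -m for a mitochondrial enzyme. The rule found 33 genes among the 17830 genes of the deposited table, 18 cytoplasmic and 15 mitochondrial. All 33 had enough counts to be tested and all matched the annotation by identifier. The rule used names and no measured value.

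The libraries came from Drosophila S2 cells, a line derived from embryos with features of blood cells (hemocytes). There were 3 libraries from cells labelled Brr2 knockdown and 3 from control cells labelled WT, and the labelled treatment of both groups was RNAi. The protocol describes double-stranded RNA given to the cells in medium, while the sample titles carry the prefix sh. The sources used here do not name the target of the control RNA or the time of harvest. Libraries were built from total RNA after removal of ribosomal RNA. Whether replicates were separate cultures is not said in the labels, and the p-values therefore reflect the spread from library to library, which may be technical.

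Cells make protein in the cytosol and, for the few proteins encoded by mitochondrial DNA, inside mitochondria. Both systems need charged tRNAs. In flies most amino acids have separate nuclear genes for the cytoplasmic and the mitochondrial enzyme. For glycine, histidine, lysine and threonine the rule found no gene ending in -m. GlyRS, HisRS, LysRS and ThrRS are counted as cytoplasmic by name, and whether they also serve mitochondria was not tested. Synthetases fall into 2 structural classes with unrelated catalytic folds, class I and class II. Brr2 is the helicase that unwinds U4 from U6 snRNA before splicing.

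Library totals lay between 127654975 and 147620403 estimated counts. Levels are given as CPM, estimated counts brought to a common library total after TMM scaling, a correction for unequal composition. The Brr2 gene, listed as l(3)72Ab, had 109, 94.0 and 99.8 CPM in knockdown libraries, against 158, 199 and 221 CPM in control libraries (log2 fold change -0.93, SE 0.155, edgeR adjusted p = 0.0111). Control replicate 3 stood apart: chi-square per degree of freedom was 1442 and 1229 against the other controls, which differed from each other by 216. Knockdown libraries differed from each other by 103 to 243. The hemocyte markers srp, Col4a1, vkg, crq, eater, ush and Ppn each averaged above 10 CPM in controls, while NimC1 and Sr-CI stayed below 1 CPM in all 6 libraries. Hml averaged 0.831 CPM in knockdown and 0.477 CPM in control libraries. He averaged 3.11 CPM in knockdown and 0.322 CPM in control libraries, and Pxn 1.35 CPM in knockdown and 9.09 CPM in control libraries. The 12 hemocyte markers summed to 1080 to 2120 CPM in knockdown and 2320 to 3350 CPM in control libraries, with 1 called higher and 2 called lower. The 4 germ-line markers summed to 51.2 to 91.7 CPM in knockdown and 11.4 to 25.9 CPM in control libraries. Most of the germ-line sum was aub, with vas, nos and bam below 1 CPM throughout. Summed markers of neurons were 41.7 to 47.2 CPM in knockdown and 39.5 to 50.5 CPM in control libraries, and those of muscle 8.55 to 11.4 CPM in knockdown and 2.47 to 3.82 CPM in control libraries. Fat body markers summed to 1.64 to 5.83 CPM in knockdown and 0.448 to 1.49 CPM in control libraries, and ovarian soma markers to 0.807 to 1.45 CPM in knockdown and 0.313 to 0.532 CPM in control libraries. Most of the muscle sum was Mlc2, at 9.56 CPM in knockdown and 2.21 CPM in control libraries. Mhc averaged 0.43 CPM in knockdown and 0.622 CPM in control libraries, and Mhc, Act57B and up stayed below 1 CPM throughout. Lsp1beta of the fat body list averaged 2.79 CPM in knockdown and 0.35 CPM in control libraries. Fas3 of the ovarian soma list averaged 1.09 CPM in knockdown and 0.374 CPM in control libraries. The germ-line, muscle and ovarian soma lists each held 1 gene called higher. Gut markers stayed below 0.1 CPM. The part of these shifts in the results below was not tested.

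Few synthetase genes passed the test after Brr2 knockdown, and those that did were lower. AsnRS, MetRS and PheRS-m fell and 0 of the 33 genes rose in the edgeR quasi-likelihood test (Benjamini-Hochberg adjusted p under 0.05 over 14167 features). Of the cytoplasmic genes 2 of 18 passed and of the mitochondrial genes 1 of 15. Of all features tested 16.8% passed and of the genes among them 17.7%. In the downward direction 8.53% of all features passed, in the upward direction 8.31%, so the 3 of 33 genes called lower are near the share of the table. The unadjusted p was under 0.05 for 9 of the 33 genes, against 34.3% of all features.

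AsnRS charges tRNA with asparagine and lies on chromosome 2L from 19129469 to 19131954, minus strand, with 1 intron (BDGP6.54). It had 71.2, 107 and 93.0 CPM in knockdown libraries, against 213, 216 and 174 CPM in control libraries. Every knockdown library lay well below every control library. In bulk RNA, a lower level in every cell and the loss of RNA from some cells cannot be told apart. The mean level was 45.1% of that in controls (log2 fold change -1.15, SE 0.182, n = 3 each, edgeR adjusted p = 0.00994). It was the largest log2 fold change in size among the 33 genes, and its call was kept in all 14 alternative settings, with log2 fold changes from -1.47 to -1.01.

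MetRS attaches methionine, also to the initiator tRNA that starts every cytoplasmic protein. The gene lies on chromosome 2R from 18846858 to 18850599, minus strand, with up to 5 introns. It had 65.1, 87.3 and 77.1 CPM in knockdown libraries, against 118, 129 and 108 CPM in control libraries, so that the groups did not overlap. The log2 fold change was -0.63 (SE 0.146, n = 3 each, edgeR adjusted p = 0.029). PheRS-m, the mitochondrial phenylalanine enzyme, lies on chromosome 2R from 13968308 to 13969902, plus strand, with 1 intron. It had 17.4, 25.8 and 19.9 CPM in knockdown libraries, against 34.7, 34.6 and 31.5 CPM in control libraries, and again the groups did not overlap. The log2 fold change was -0.68 (SE 0.163, n = 3 each, edgeR adjusted p = 0.0327). In these 3 genes replicate 1 was the lowest and replicate 2 the highest knockdown library.

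The calls of MetRS and PheRS-m depended on the libraries. Without knockdown replicate 1 or 3 or control replicate 1 or 2, MetRS had edgeR adjusted p of 0.0999, 0.0966, 0.0853 and 0.0945. PheRS-m had adjusted p of 0.106, 0.111, 0.103 and 0.1 in the same 4 settings, 0.061 with no filter on low counts and 0.0505 with upper quartile scaling. In each of those 4 settings AsnRS was the only member called, while the share of all features called was 5.12%, 6.36%, 5.63% and 7.29%. Without knockdown replicate 2 the same 3 genes fell (14.7% of all features called), and without control replicate 3 they were joined by ThrRS (15.3%).

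Other settings added genes more often than they removed them. DESeq2 called 6 of the 33 genes, with AlaRS and TrpRS-m higher and ArgRS-m lower beside the 3 genes above (26.5% of all features). A minimum mean of 5 CPM also gave 6 calls, adding AlaRS, LeuRS-m and TrpRS-m as higher (25.1%). Upper quartile scaling gave 4, with AsnRS and MetRS lower and AlaRS and TrpRS-m higher (16.8%). Scaling by total counts alone gave 10 genes as lower and 0 as higher, adding HisRS, IleRS, ThrRS, TyrRS, ArgRS-m, MetRS-m and SerRS-m (27.3%). The calls were AsnRS, MetRS and PheRS-m with limma voom (17.3%), with gene rows only (17.8%) and with the replicate block (24.4%). With no filter on low counts they were AsnRS and MetRS (6.93%).

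**Figure D1:**
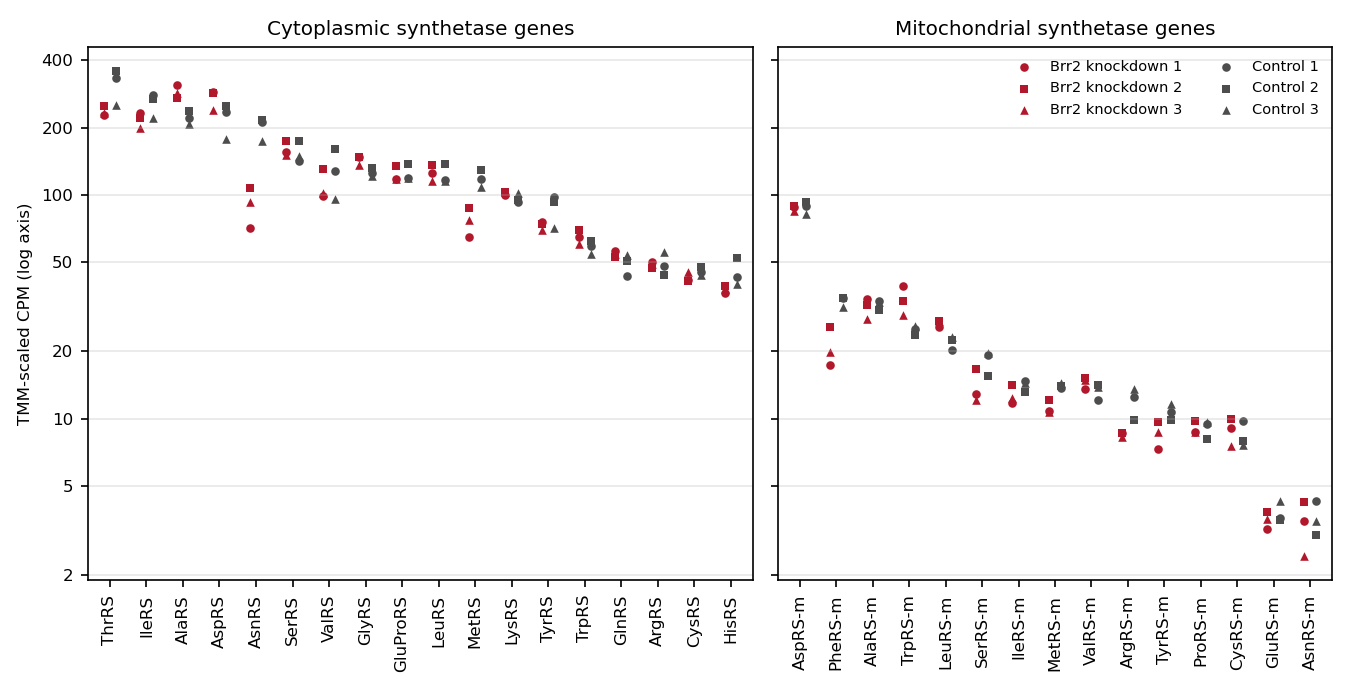
TMM-scaled CPM (log axis) of the 18 cytoplasmic and 15 mitochondrial synthetase genes in each library, red for Brr2 knockdown and grey for control, with a marker shape for each replicate number and genes ordered by their control mean. The red points of AsnRS, MetRS and PheRS-m lie below the grey ones, and most other genes sit at similar heights in both groups.

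The other 16 cytoplasmic genes did not pass the test. The groups did not overlap for 4 of them, against 41.3% of all features. ThrRS, the threonine enzyme, had 227, 250.2 and 233 CPM in knockdown libraries and 332, 357 and 253 CPM in control libraries. The groups did not overlap, but control replicate 3 was only slightly above the knockdown libraries (log2 fold change -0.41, SE 0.157, edgeR adjusted p = 0.115). AlaRS, the alanine enzyme, had 309, 270.0 and 285 CPM in knockdown libraries and 221, 237 and 207 CPM in control libraries. All its knockdown libraries were above all controls, and the test missed the threshold (log2 fold change 0.38, SE 0.123, adjusted p = 0.0743). In the settings that called AlaRS, adjusted p was 0.0198 with DESeq2, 0.037 with upper quartile scaling and 0.036 with a minimum of 5 CPM, and its log2 fold change was 0.04 under total count scaling.

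HisRS, the histidine enzyme, had 36.6, 39.4 and 37.9 CPM in knockdown libraries and 42.9, 52.5 and 39.9 CPM in control libraries, a narrow separation (log2 fold change -0.25, adjusted p = 0.236). It shares 255 exonic bases with Bx on the same strand, a gene at 6.48 CPM in knockdown and 9.63 CPM in control libraries, so its counts are uncertain. GlyRS, the glycine enzyme, had 147, 147 and 137 CPM in knockdown libraries and 126, 133 and 122 CPM in control libraries, also without overlap (log2 fold change 0.18, adjusted p = 0.291). In the other 12 uncalled cytoplasmic genes the ranges of the groups overlapped, and their log2 fold changes lay between -0.25 for TyrRS and 0.29 for AspRS. AspRS, the aspartate enzyme, had 287, 284 and 240.1 CPM in knockdown libraries and 234, 250.1 and 178 CPM in control libraries. Its lowest knockdown library lay below the highest control. AspRS shares 154 exonic bases with asRNA:CR43468 on the same strand, which averaged 2.34 CPM in knockdown and 2.50 CPM in control libraries. AspRS shares 1448 exonic bases with the antisense gene asRNA:CR45141, which averaged 0.776 CPM in knockdown and 0.506 CPM in control libraries. It also shares 127 exonic bases with Nmda1 on the other strand, a gene at 246 CPM in knockdown and 157 CPM in control libraries (log2 fold change 0.65). The sources used here do not say whether counting used the strand, so reads of such overlapping genes cannot be told apart.

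In some cytoplasmic genes the overlap came through control replicate 3. TyrRS, the tyrosine enzyme, had 75.9, 74.4 and 69.7 CPM in knockdown libraries and 97.6, 93.0 and 71.4 CPM in control libraries. IleRS, the isoleucine enzyme, had 232, 219.9 and 199 CPM in knockdown libraries and 281, 268 and 221 CPM in control libraries. In both genes control replicate 3 fell within the knockdown range while the other controls lay above it. ValRS, the valine enzyme, had 99.2, 131 and 103 CPM in knockdown libraries and 128.4, 160.1 and 95.8 CPM in control libraries, with control replicate 3 the lowest of all 6 and control replicate 1 also below the highest knockdown library. Control replicate 3 was the lowest control library for 14 of 18 cytoplasmic and 3 of 15 mitochondrial genes.

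LysRS, the lysine enzyme, had 101, 104 and 103 CPM in knockdown libraries and 92.8, 95.1 and 102 CPM in control libraries. GlnRS, the glutamine enzyme, had 56.4, 52.9 and 54.7 CPM in knockdown libraries and 43.4, 50.8 and 54.0 CPM in control libraries. TrpRS, the tryptophan enzyme, had 64.8, 69.6 and 60.7 CPM in knockdown libraries and 59.0, 62.2 and 54.5 CPM in control libraries. In these 3 genes the ranges overlapped with the knockdown libraries toward the upper end (log2 fold changes 0.08, 0.15 and 0.15). SerRS had 155, 174 and 151 CPM in knockdown libraries and 142, 175 and 149 CPM in control libraries. ArgRS had 50.04, 47.1 and 49.0 CPM in knockdown libraries and 48.3, 44.0 and 55.6 CPM in control libraries. CysRS, the cysteine enzyme, had 41.9, 41.1 and 45.3 CPM in knockdown libraries and 45.3, 47.5 and 43.8 CPM in control libraries. The serine, arginine and cysteine genes had log2 fold changes of 0.04, -0.02 and -0.09, smaller than the members' median SE of 0.136.

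GluProRS encodes a fused enzyme that charges glutamate and proline. It shares 905 exonic bases with the antisense gene asRNA:CR46092, which averaged 2.54 CPM in knockdown and 3.04 CPM in control libraries. GluProRS had 118, 135 and 118 CPM in knockdown libraries and 119, 138 and 119 CPM in control libraries. The log2 fold change was -0.02 (SE 0.126, adjusted p = 0.923), and the libraries interleaved. The leucine gene LeuRS was as close, with 125, 136 and 116 CPM in knockdown libraries and 117, 137 and 116 CPM in control libraries. In mammals some of the cytoplasmic enzymes are held in a multi-synthetase complex. The fly genes of the same names are ArgRS, AspRS, GlnRS, GluProRS, IleRS, LeuRS, LysRS and MetRS. Of these 8 genes MetRS fell and 0 rose (median 0.00 on the log2 scale), and of the 10 other cytoplasmic genes AsnRS fell and 0 rose (median -0.15). Both counts are too few to be set apart from the 8.53% of all features called lower.

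Among mitochondrial enzymes outside PheRS-m, TrpRS-m had the largest positive log2 fold change of the 33 genes, 0.45 (SE 0.136, edgeR adjusted p = 0.0632). This tryptophan gene had 39.0, 33.6 and 29.2 CPM in knockdown libraries and 25.1, 23.7 and 25.9 CPM in control libraries, without overlap. Its adjusted p was 0.0306 with DESeq2, 0.0341 with upper quartile scaling and 0.0278 with a minimum of 5 CPM, and its log2 fold change was 0.10 under total count scaling. LeuRS-m, the leucine enzyme, had 25.6, 27.3 and 27.4 CPM in knockdown libraries and 20.4, 22.5 and 23.2 CPM in control libraries. Its knockdown libraries all lay above the controls (log2 fold change 0.28, adjusted p = 0.125, and 0.0463 with a minimum of 5 CPM), but the log2 fold change was -0.06 under total count scaling.

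ArgRS-m, the arginine enzyme, had 8.64, 8.63 and 8.32 CPM in knockdown libraries and 12.6, 9.90 and 13.6 CPM in control libraries. All knockdown libraries lay below all controls, with the closest control at replicate 2 (log2 fold change -0.49, SE 0.163, adjusted p = 0.0775, 0.0351 with DESeq2, range 0.0239 to 0.207 over the alternatives). Its exons share 325 bases with mRpS9 on the other strand, a gene at 32.5 CPM in knockdown and 40.9 CPM in control libraries. MetRS-m had 10.9, 12.2 and 10.7 CPM in knockdown libraries and 13.8, 14.0 and 14.4 CPM in control libraries (log2 fold change -0.32, adjusted p = 0.125). TyrRS-m had 7.35, 9.71 and 8.74 CPM in knockdown libraries and 10.7, 9.87 and 11.7 CPM in control libraries (log2 fold change -0.32, adjusted p = 0.207). Both lay lower in all knockdown than in all control libraries, TyrRS-m by a thin margin. SerRS-m, the serine enzyme, had 12.9, 16.7 and 12.1 CPM in knockdown libraries and 19.3, 15.5 and 19.7 CPM in control libraries. Its groups overlapped through replicate 2 of each (log2 fold change -0.39, adjusted p = 0.162), and 356 of its exonic bases lie opposite Nagk, at 2.76 CPM in knockdown and 5.01 CPM in control libraries.

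AspRS-m was the mitochondrial member of highest CPM, at 88.8, 89.0 and 84.8 CPM in knockdown libraries and 89.0, 92.8 and 82.2 CPM in control libraries. The groups overlapped fully (log2 fold change -0.01, SE 0.109). The remaining mitochondrial genes, AlaRS-m, AsnRS-m, CysRS-m, GluRS-m, IleRS-m, ProRS-m and ValRS-m, overlapped between groups with log2 fold changes between -0.15 and 0.13. IleRS-m, at the low end of these, had 11.8, 14.2 and 12.4 CPM in knockdown libraries and 14.8, 13.3 and 14.4 CPM in control libraries. ValRS-m, at the high end, had 13.7, 15.2 and 14.99 CPM in knockdown libraries and 12.1, 14.2 and 13.8 CPM in control libraries. For AlaRS-m, CysRS-m and ProRS-m the log2 fold changes were -0.05, 0.07 and 0.00. CysRS-m shares 302 exonic bases with CG13016 on the other strand, a gene at 9.59 CPM in knockdown and 10.9 CPM in control libraries. AsnRS-m and GluRS-m were the lowest members, with means of 3.40 and 3.54 CPM in knockdown libraries and 3.61 and 3.82 CPM in control libraries.

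**Figure D2:**
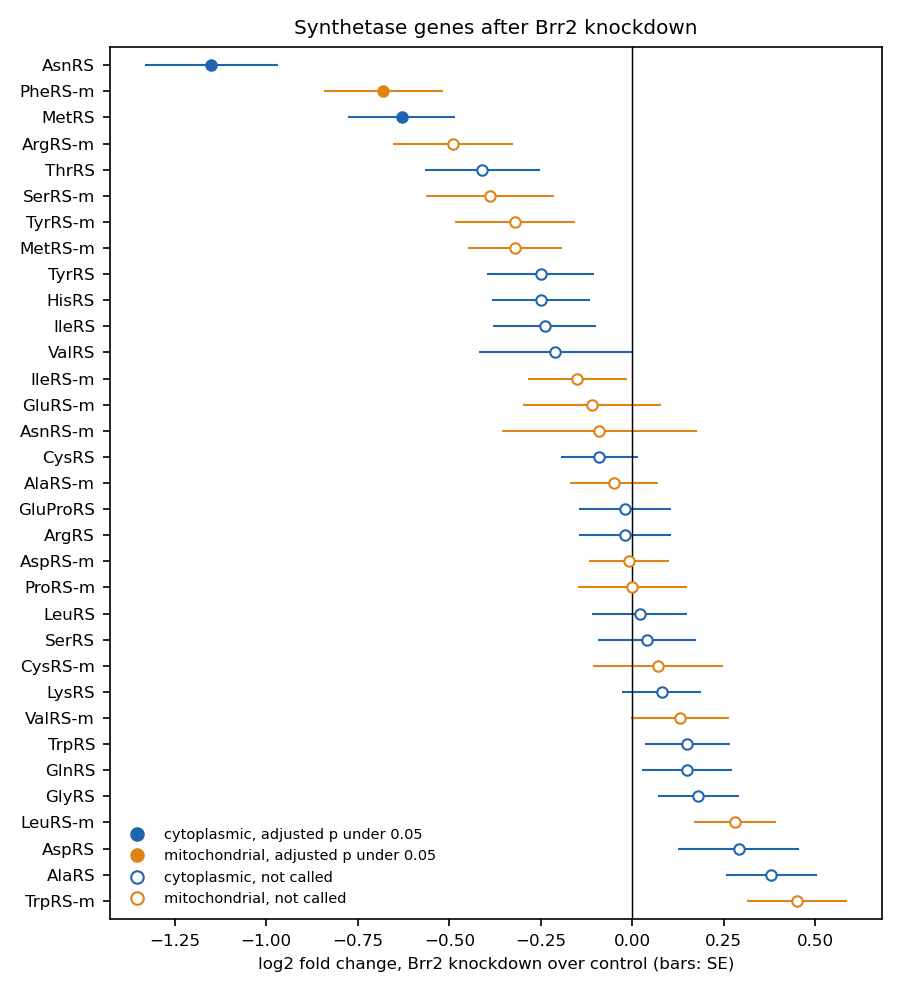
Log2 fold change of each of the 33 genes, Brr2 knockdown over control, with SE bars, blue for cytoplasmic and orange for mitochondrial genes, filled where the edgeR adjusted p was under 0.05. AsnRS at -1.15, PheRS-m at -0.68 and MetRS at -0.63 are filled, and the 2 compartments are mixed along the axis.

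Across the 33 genes the groups did not overlap for 12, of which 8 were lower and 4 higher in all knockdown libraries, against 41.3% of all features. All knockdown libraries lay below all controls for 20.4% of features and above them for 20.9%. Compared within same-numbered pairs of libraries, a count made after the values had been seen, 9 of the 33 genes were higher and 11 lower in all 3 pairs, against 31.9% and 31.5% of all features (63.5% in either direction). This added AspRS, GlnRS, LysRS, TrpRS and ValRS-m to the genes higher in the knockdown, and GluProRS, IleRS and TyrRS to the lower ones. In the fit with the replicate block none of these 8 genes passed (edgeR adjusted p from 0.097 to 0.891). The median log2 fold change was -0.02 for the cytoplasmic and -0.09 for the mitochondrial genes, with 0.01 over all features and -0.02 over all genes. Both medians turned positive with upper quartile scaling (0.10 and 0.04) and a minimum of 5 CPM (0.07 and 0.04). When libraries were scaled by total counts alone, the log2 fold changes of all features shifted by a median of -0.34, and the medians became -0.36 for cytoplasmic and -0.42 for mitochondrial genes. The same scaling left 2 of the 33 log2 fold changes above 0, those of AlaRS and TrpRS-m, against 12 under TMM. A change of scaling moves all genes nearly alike, and relative to the median of all features the compartment medians were -0.03 for cytoplasmic and -0.09 for mitochondrial genes under TMM, total count and upper quartile scaling. These relative medians were 0.08 and 0.06 with a minimum of 5 CPM, -0.17 and -0.24 with no filter, and 0.02 and 0.03 without knockdown replicate 3. The quartiles of the 33 log2 fold changes were -0.25 and 0.08, against -0.44 and 0.48 over all genes. The members' median SE was 0.136, against 0.237 over all genes.

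Cytoplasmic and mitochondrial synthetase genes differed far more in level than in their change. Per kilobase of annotated exons, cytoplasmic genes ranged from 13.3 to 119 CPM with a median of 38.4 in knockdown libraries, and from 15.7 to 108 CPM with a median of 40.1 in control libraries. Mitochondrial genes ranged from 2.08 to 19.8 CPM per kilobase with a median of 5.44 in knockdown libraries, and from 2.25 to 22.0 with a median of 6.01 in control libraries. AspRS held the highest level per kilobase in knockdown libraries, and ThrRS in control libraries. AsnRS ranked 10 of 33 per kilobase in knockdown libraries, against 3 of 33 in control libraries.

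Summed CPM of the cytoplasmic genes was 2262, 2369 and 2169 in knockdown libraries and 2460.0, 2644 and 2164 in control libraries. GlyRS, HisRS, LysRS and ThrRS, which have no -m partner, are part of these sums by name. Summed CPM of the mitochondrial genes was 295, 312 and 279 in knockdown libraries and 314, 304 and 309 in control libraries. The cytoplasmic sum was 7.68 ± 0.0944 times the mitochondrial sum in knockdown libraries and 7.86 ± 0.852 times in control libraries (SD, n = 3 each). The difference between groups was smaller than the spread between control libraries. This ratio does not depend on the scaling between libraries. Without AsnRS it was 7.37 ± 0.11 in knockdown and 7.21 ± 0.778 in control libraries.

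Within-library ratios compared the genes for the 12 amino acids that have a cytoplasmic and a mitochondrial member of their own. The log2 ratio of AsnRS to AsnRS-m was 4.35, 4.65 and 5.25 in knockdown libraries and 5.62, 6.16 and 5.63 in control libraries, a difference of -1.06 (SE 0.32). The cytoplasmic gene was thus lower against its partner in all 3 knockdown libraries. Ratios without overlap were also lower in the knockdown for Leu, Met and Trp, with differences of -0.26, -0.31 and -0.29. They were higher for Ala, Arg and Asp, with differences of 0.43, 0.47 and 0.31. For Leu and Trp the log2 fold changes were 0.28 and 0.45 in the mitochondrial gene and 0.02 and 0.15 in the cytoplasmic gene. For Met they were -0.32 and -0.63. For the other 5 amino acids the groups overlapped. How often ratios of other gene pairs lack overlap was not computed, and 41.3% of all single features did so. For the 7 ratios without overlap a 2-sided exact permutation test gave p = 0.1, the smallest that 3 libraries against 3 allow, and 0.171 adjusted over the 12 pairs. The 12 differences had a median of -0.12, with 5 above 0 and 7 below, so the pairs showed no shared direction. The fused GluProRS was set apart from these 12. Its log2 ratio differed by 0.09 (SE 0.149) against GluRS-m and by -0.02 (SE 0.15) against ProRS-m, and the groups overlapped in both.

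**Figure D3:**
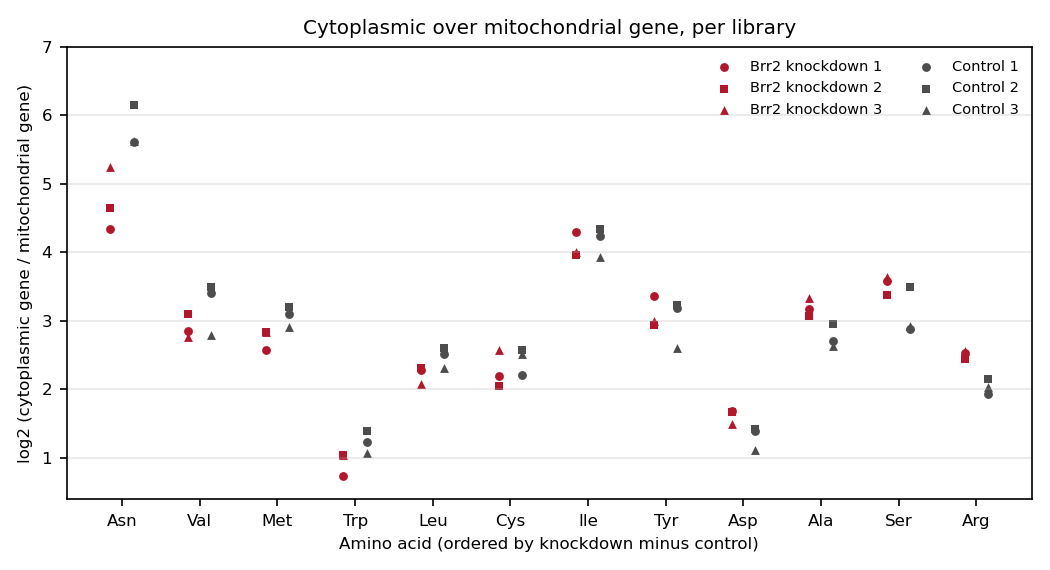
Log2 ratio of the cytoplasmic to the mitochondrial synthetase gene of the same amino acid in each library, red for Brr2 knockdown and grey for control, amino acids ordered by knockdown minus control. Asn lies at the left with a difference of -1.06 and Arg at the right with 0.47, and 5 of 12 amino acids overlap between groups.

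Both structural classes held genes that fell and genes that did not pass. Of 18 class I genes MetRS fell (median -0.10 on the log2 scale), and of 14 class II genes AsnRS and PheRS-m fell (median -0.03). Of all features 8.53% were called lower, and these counts are too few to be set apart from that share. GluProRS holds an enzyme of each class. The genes were spread over chromosomes 2L, 2R, 3L, 3R and X, with 3 cytoplasmic and 0 mitochondrial genes on X. GluRS-m and TyrRS lie beside each other on 3L in the same orientation, 171 bases apart, with log2 fold changes of -0.11 and -0.25. Cytoplasmic genes had a median of 4 introns (0 to 6) and mitochondrial genes of 3 (0 to 9), counted in the transcript with most introns. Across the 33 genes Spearman's rho of the log2 fold change was -0.14 with intron number, -0.01 with exonic length and 0.08 with control level per kilobase. These rank correlations are descriptions across genes of the same 6 libraries, and genes are not independent replicates. The intronless genes GlnRS, SerRS and SerRS-m had log2 fold changes of 0.15, 0.04 and -0.39.

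Outside the symbol rule, genes of synthetase subunits, relatives and partners of these enzymes included 2 that fell. Among 9 such genes GatA and beta-PheRS fell and 0 rose (list median -0.39 on the log2 scale, against -0.02 over all genes). Since 8.53% of all features were called lower, 2 of 9 is too few to be set apart from the table. All knockdown libraries lay below all controls for 7 of the 9 genes, against 20.4% of all features. The unadjusted edgeR p was under 0.05 for 5 of the 9, against 34.3% of all features. The list as a whole was not tested. Cytoplasmic phenylalanine charging needs an enzyme of alpha and beta subunits. The symbols of both subunit genes carry a prefix that the rule did not match. The 18 cytoplasmic genes counted above therefore hold no phenylalanine enzyme. The beta subunit gene beta-PheRS had 19.1, 25.0 and 18.7 CPM in knockdown libraries, against 32.6, 33.6 and 47.5 CPM in control libraries, without overlap (log2 fold change -0.86, SE 0.194, edgeR adjusted p = 0.0269). The alpha subunit gene alpha-PheRS had 44.5, 44.1 and 48.3 CPM in knockdown libraries and 41.6, 46.8 and 60.4 CPM in control libraries. Its groups overlapped (log2 fold change -0.12, adjusted p = 0.623). The log2 ratio of beta to alpha was -1.22, -0.82 and -1.37 in knockdown libraries and -0.35, -0.48 and -0.35 in control libraries, lower in every knockdown library (difference -0.74, SE 0.17, 2-sided exact permutation p = 0.1, the smallest possible).

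Mitochondria make glutaminyl-tRNA indirectly: GluRS-m charges the tRNA with glutamate, and the amidotransferase GatCAB converts it. GatA had 5.75, 8.36 and 6.74 CPM in knockdown libraries, against 12.9, 11.6 and 12.8 CPM in control libraries, without overlap (log2 fold change -0.84, SE 0.179, edgeR adjusted p = 0.0222). GatB had 13.8, 14.0 and 13.7 CPM in knockdown libraries and 15.5, 14.4 and 16.0 CPM in control libraries, a narrow gap (log2 fold change -0.15, adjusted p = 0.418). The log2 ratio of GatA to GatB was -1.26, -0.74 and -1.03 in knockdown libraries and -0.26, -0.32 and -0.32 in control libraries, again without overlap (difference -0.71, SE 0.152, exact permutation p = 0.1). Both ratios divide genes of 1 enzyme within a library and so do not depend on scaling. GatC ranged from 2.55 to 9.49 CPM in knockdown and 2.87 to 3.62 CPM in control libraries (adjusted p = 0.228), and shares 1570 exonic bases with PolG2 on the same strand, so its value is uncertain. Without knockdown replicate 1 or 3 or control replicate 1 or 2, adjusted p was 0.0786, 0.0812, 0.0749 and 0.0568 for GatA and 0.105, 0.0932, 0.0565 and 0.0596 for beta-PheRS, which was also not called with no filter (0.0562).

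AIMP1, AIMP2 and AIMP3, the scaffold proteins of the multi-synthetase complex, each lay lower in all knockdown than in all control libraries. The same held for 20.4% of all features. AIMP1 had 14.1, 15.4 and 17.3 CPM in knockdown libraries and 20.9, 18.3 and 28.2 CPM in control libraries. AIMP3 had 13.3, 16.5 and 16.5 CPM in knockdown libraries and 20.4, 19.5 and 25.4 CPM in control libraries. AIMP2 had 29.8, 28.9 and 30.4 CPM in knockdown libraries and 39.8, 34.3 and 43.0 CPM in control libraries. The log2 fold changes of AIMP1, AIMP2 and AIMP3 were -0.52, -0.39 and -0.50, and the edgeR adjusted p values were 0.0934, 0.0675 and 0.0708. In the fit with a replicate block all 3 passed, with adjusted p of 0.042, 0.0465 and 0.0422. All 3 also passed under total count scaling, and AIMP2 and AIMP3 with DESeq2. Over all alternatives adjusted p ran from 0.0361 to 0.261 for AIMP1, 0.0207 to 0.179 for AIMP2 and 0.0285 to 0.216 for AIMP3. In each of the 3 genes control replicate 3 was the highest library. Slimp, a relative of the mitochondrial seryl-tRNA synthetase, had 4.46 ± 0.367 CPM in knockdown and 5.23 ± 0.473 CPM in control libraries (SD, n = 3 each; log2 fold change -0.23, adjusted p = 0.392).

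**Figure D4:**
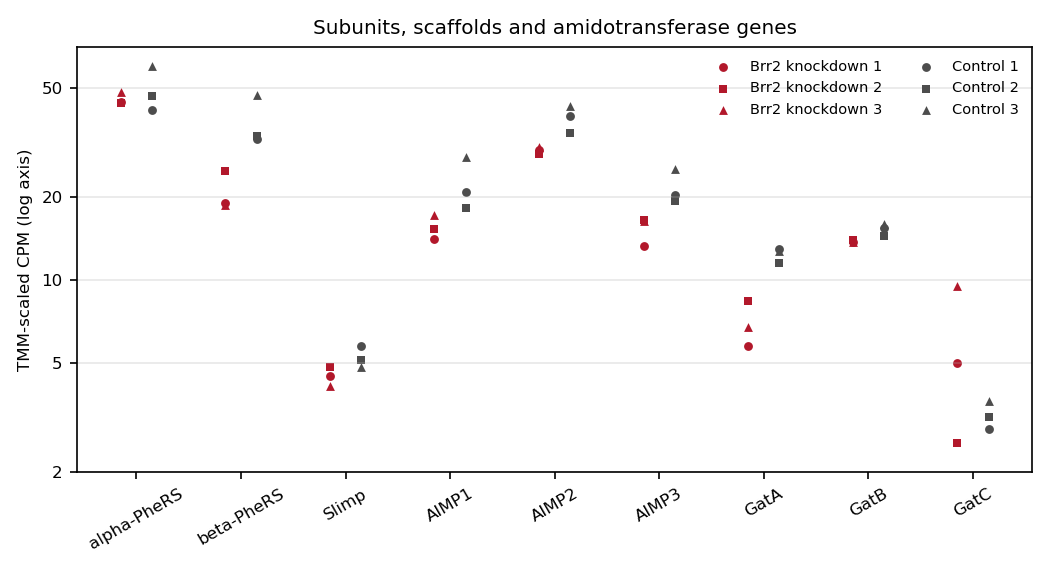
TMM-scaled CPM (log axis) of genes that encode synthetase subunits, complex scaffolds, the relative Slimp and the mitochondrial amidotransferase in each library, red for Brr2 knockdown and grey for control. beta-PheRS, GatA, GatB, Slimp, AIMP1, AIMP2 and AIMP3 lie lower in all knockdown than in all control libraries. The subunits alpha-PheRS and GatB show smaller differences than their partners beta-PheRS and GatA, with log2 fold changes of -0.12 and -0.15.

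The lists of other steps around tRNA charging are set beside the share of all features called, 16.8%. With 9 to 17 tested genes each, their counts of 2 to 5 are too few to be set apart from that share. Of 9 cytosolic elongation and release factors 2 rose and 0 fell (list median 0.00 on the log2 scale). The translocation factor gene eEF2 had 9198, 7919 and 7435 CPM in knockdown libraries, against 5275, 5361 and 4481 CPM in control libraries (log2 fold change 0.70, SE 0.152, edgeR adjusted p = 0.0235). The call was lost without knockdown replicate 1 or 3 or control replicate 1 or 2 (adjusted p of 0.0939, 0.065, 0.0511 and 0.057), without a filter (0.0607) and under total count scaling (0.0568). eEF1alpha2, a second copy of the tRNA-delivering factor, was scarce, at 0.445 CPM in knockdown and 0.150 CPM in control libraries (log2 fold change 1.57, edgeR adjusted p = 0.047). Its call was lost when any library was left out (0.0814 to 0.154), with the replicate block (0.0715), with gene rows only (0.0606), without a filter (0.0688) and under total count scaling (0.0669). The release factor gene eRF3 did not pass (0.46 on the log2 scale, edgeR adjusted p = 0.0698), but did with the replicate block (0.0426) and in 4 other settings, with a range of 0.0239 to 0.724 over all of them.

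Of 11 tested mitochondrial translation factors 2 fell and 0 rose (list median 0.07 on the log2 scale). The initiation factor gene mIF2 had 3.33, 4.17 and 3.56 CPM in knockdown libraries, against 7.52, 8.16 and 7.93 CPM in control libraries (log2 fold change -1.09, SE 0.17, edgeR adjusted p = 0.00967). The ribosome recycling factor gene mRRF2 fell to 3.61 ± 0.521 CPM in knockdown libraries, against 6.01 ± 0.469 CPM in control libraries (SD, n = 3 each; adjusted p = 0.038). Its call was lost when any library but knockdown replicate 2 was left out (0.065 to 0.131), without a filter (0.0603) and with upper quartile scaling (0.0585). The elongation factor gene mEFTu1 did not pass, although its groups did not overlap (0.43 on the log2 scale, edgeR adjusted p = 0.0877, range 0.0415 to 0.797 over the alternatives).

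Of 17 tested genes listed for tRNA processing and modification 3 rose and 1 fell, against 16.8% of all features called (list median -0.01 on the log2 scale). The 17 include Tis11, not known as a tRNA processing or modification gene, which was not called (log2 fold change -0.13). RtcB, the ligase that joins tRNA exons after intron removal, had 92.0, 76.6 and 87.5 CPM in knockdown libraries, against 38.2, 47.5 and 43.1 CPM in control libraries (log2 fold change 0.99, SE 0.135, edgeR adjusted p = 0.00672). Archease, its activating partner, had 46.8, 41.7 and 50.1 CPM in knockdown libraries, against 21.2, 20.6 and 22.7 CPM in control libraries (log2 fold change 1.10, SE 0.119, adjusted p = 0.00358). Rpp30, a protein subunit of the RNase P that trims tRNA 5′ ends, fell to 4.46 ± 0.244 CPM in knockdown libraries, against 10.1 ± 1.48 CPM in control libraries (SD, n = 3 each; adjusted p = 0.0083). Groups did not overlap in RtcB, Archease or Rpp30. La, an RNA-binding protein that protects new tRNA 3′ ends, was named after its value was seen. It averaged 464 CPM in knockdown and 221 CPM in control libraries (edgeR adjusted p = 0.025). Adjusted p was 0.109 under total count scaling, 0.055 without a filter and 0.0774 to 0.0913 without knockdown replicate 1 or 3 or control replicate 1 or 2.

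Uncharged tRNA activates the kinase Gcn2, which acts on translation through eIF2alpha and the factor ATF4, called crc in flies. Of 17 tested genes listed for this amino acid response 3 rose and 2 fell, against 16.8% of all features called (list median 0.05 on the log2 scale). The gene crc itself was not called, with 1132, 963 and 989 CPM in knockdown libraries and 1001, 741 and 672 CPM in control libraries (log2 fold change 0.35, edgeR adjusted p = 0.211), and its groups overlapped. Gcn2 had 119, 88.8 and 87.7 CPM in knockdown libraries, against 51.0, 48.6 and 44.7 CPM in control libraries (log2 fold change 1.04, SE 0.156, edgeR adjusted p = 0.00872). Xrp1, a stress-induced transcription factor, had 691, 561 and 572 CPM in knockdown libraries, against 302, 344 and 269 CPM in control libraries (log2 fold change 1.00, SE 0.154, adjusted p = 0.00948). The amino acid transporter gene mnd fell to 16.5 ± 3.47 CPM in knockdown libraries, against 37.1 ± 6.99 CPM in control libraries (SD, n = 3 each; adjusted p = 0.0129). The other called genes, named after their values were seen, were Irbp18, the partner of Xrp1, and the transporter gene JhI-21. Irbp18 averaged 12.9 CPM in knockdown and 5.82 CPM in control libraries (edgeR adjusted p = 0.025), and JhI-21 averaged 77.1 CPM in knockdown and 272 CPM in control libraries (0.019). Without knockdown replicate 1 or 3 or control replicate 2, adjusted p was 0.0950, 0.0656 and 0.083 for Irbp18 and 0.0831, 0.0675 and 0.0666 for JhI-21, which also had 0.0626 without control replicate 1. Also named after their values were seen, AsnS, the asparagine synthetase gene, and Thor, the 4E-BP gene, had large negative log2 fold changes that did not pass. AsnS averaged 12.2 ± 1.82 CPM in knockdown and 29.7 ± 16.8 CPM in control libraries (SD, n = 3 each; log2 fold change -1.29, edgeR adjusted p = 0.0535). Thor averaged 29.1 ± 8.41 CPM in knockdown and 68.2 ± 36.5 CPM in control libraries (SD, n = 3 each; log2 fold change -1.23, edgeR adjusted p = 0.106).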

How the data were processed

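The values deposited by the authors are estimated counts for genes and transposon copies, whole numbers that carry no scaling between libraries, as the values themselves show. Per the submitters' processing notes the tools were Trimmomatic and TopHat2 and the build was BDGP6, and no version is named. The sources used here do not state the counting tool, its use of strand or how it treated reads with several hits. Positions, introns and exonic lengths came from Ensembl release 115 (BDGP6.54) by gene identifier.

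edgeR 4.0.16 in R 4.3.3 (filterByExpr, TMM, glmQLFit and glmQLFTest, group only) was fitted to all 6 libraries, with Benjamini-Hochberg adjustment over 14167 tested of 23882 features and a threshold of 0.05. It was also run on simulated data with known fold changes, drawn without pairing of replicates. The outcome is not given here and serves as no support for the results. Each SE was obtained by dividing the log2 fold change by the root of the F statistic. Ratios between genes used a 2-sided exact permutation test (scipy 1.17.1). Alternatives were other scalings, filters and tools (DESeq2 1.42.0, limma 3.58.1), gene rows only, leaving out each library, and a block for replicate number. With totals above 127654975, the spread between libraries was taken to limit precision more than counting. This was not tested, and it may not hold for scarce genes such as eEF1alpha2 (SE 0.429).

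The labels give both groups the same replicate numbers. Each library was set against its group mean. Knockdown and control libraries of equal number then correlated at 0.16 to 0.317 and those of unequal number at -0.229 to 0.051. Deviations from a group mean cancel out within the group, so positive values at equal numbers push the others down. The ranges are therefore not separate pieces of evidence. The numbers were taken to pair the libraries. The pairing comes from the data, not from the labels. The reported edgeR test and the exact permutation tests treated the libraries as unpaired, so their p-values do not use it. Only the fit with the replicate block and the count within same-numbered pairs used the pairing.

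All members of the symbol rule, all 9 related genes and the 3 lowest adjusted p of every other list were named. The members and lists were chosen with earlier results of these data known. Of the other listed names, mEFG2, CG31450, Mtfmt, swt, Trnt1, TRMT1, Gcn1, Psat and Phgdh were not matched by symbol. No values were taken under these names, and a gene may be present under another name. Sequences were not used here.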

Additional observations from a re-analysis of the deposited data

How the results depend on the processing

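The Brr2 and AsnRS calls kept their direction and passed in all 14 alternative settings. Cytoplasmic synthetase genes called numbered 1 to 3 when libraries were left out one at a time and 6 with total counts only, against 2 in the reported test. Mitochondrial genes called numbered 0 to 1 with a library left out, 0 with no filter, 3 with DESeq2, 3 with a minimum of 5 CPM and 4 with total counts only, against 1; with upper quartile scaling the 1 gene called was TrpRS-m. Over all features 761 to 2250 passed with a library left out, 1470 with no filter, 3750 with DESeq2 and 3868 with total counts only, against 2385; of the last 733 were higher and 3135 lower. Upper quartile scaling gave 1508 higher and 877 lower, against 1177 and 1208. The cytoplasmic median log2 fold change was 0.10 with upper quartile scaling, 0.07 with a minimum of 5 CPM and -0.36 with total counts only. The mitochondrial median was 0.04, 0.04 and -0.42 in the same settings. Leaving out libraries gave -0.06 to 0.02 for the cytoplasmic and -0.18 to 0.01 for the mitochondrial median. The cause of these differences was not tested, apart from the scaling shift given above. With the replicate block for the pairing 3456 features passed, and it changed the calls of AIMP1, AIMP2, AIMP3, eRF3 and eEF1alpha2 and no other call among the 57 named genes. Of 792 combinations of gene and setting, 705 kept the side of the threshold, 55 lost a call and 32 gained one, with no called direction reversed. AsnRS-m, GluRS-m, GatC, Slimp, mRRF2 and eEF1alpha2 were not tested with a minimum of 5 CPM.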
